A study of Homo sapiens with 49 samples.

Results

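The H3K4me1 peaks of Ishikawa cells, an endometrial adenocarcinoma line, were compared between estradiol and vehicle. The members are all peaks of both deposited lists, 28411 from DMSO-treated cells and 22553 from cells given 17β-estradiol (E2) at 10 nM, each after 8 h, or 50964 of the 528044 peaks in the 45 lists of the series. Both groups had been kept in hormone-depleted medium, and DMSO was the vehicle, so E2 was the sole labelled difference. Each group was 1 library made with the same antibody to H3K4me1, and no difference between the lists could be set against replicate error or tested. A peak was called shared when it overlapped a peak of the other list by at least 1 bp, and otherwise E2-only or DMSO-only. The other Ishikawa lists, used as features to overlap, were H3K4me3 and H3K27me3 at 8 h and c-JUN, LSD1, MAX, RARA, TAF1 and c-MYC at 1 h of E2 or DMSO. SIN3A had been mapped in hormone-stripped against full media, and H3K36me3 had a single list. The sources give no separate cultures for these libraries, and they are of 1 cell line.

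Monomethylation of lysine 4 on histone H3 is laid down mainly by the enzymes KMT2C and KMT2D at enhancers, where it is present both before and during activity. It also flanks active promoters, whose centres carry trimethylation (H3K4me3) instead. Estrogen receptor alpha, the product of ESR1, binds estrogen response elements at such enhancers in endometrial and breast cells, often beside AP-1 factors such as c-JUN, and the demethylase LSD1 (KDM1A) removes mono- and dimethylation from the same lysine.

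The strongest exclusive peaks and those with an exact estrogen response element around the summit are shown as sequence. Both are the places where a treatment difference would be looked for first. All sequences come from GRCh37 (hg19), plus strand. Of the windows reaching 150 bases to each side of the summits, 4 of 4481 E2-only windows held GGTCA and TGACC separated by 3 bases, which is 0.0893% (95% interval 0.0243 to 0.228%). The same element was in 4 of 10793 DMSO-only windows, or 0.0371% (0.0101 to 0.0949%). It was in 0.0352% of all DMSO list windows, in 0.0355% of all E2 list windows and in 0.0572% of 34961 RefSeq promoters (GRCh38.p14 table). The element was therefore rare in every class, and its intervals overlapped between the classes. In the lines that follow, capitals mark the element.
THNSL2, E2-only, chr2:88491052-88491104: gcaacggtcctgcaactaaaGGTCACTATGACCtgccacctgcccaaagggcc
STXBP6, E2-only, chr14:25434326-25434378: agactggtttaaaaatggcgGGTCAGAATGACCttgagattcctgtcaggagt
RAB11FIP4, E2-only, chr17:29777927-29777979: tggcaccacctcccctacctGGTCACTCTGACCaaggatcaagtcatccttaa
TXNDC11, E2-only, chr16:11800122-11800174: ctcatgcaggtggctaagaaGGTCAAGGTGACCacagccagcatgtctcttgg
MIDEAS, DMSO-only, chr14:74223448-74223500: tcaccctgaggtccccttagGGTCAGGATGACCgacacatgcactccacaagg
FOXD1, DMSO-only, chr5:72613491-72613543: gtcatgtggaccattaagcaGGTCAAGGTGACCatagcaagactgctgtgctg
MEIS1, DMSO-only, chr2:66734839-66734891: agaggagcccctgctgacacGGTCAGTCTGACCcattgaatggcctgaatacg

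The names are those of the nearest protein-coding genes. The THNSL2 element lay 18.3 kb downstream of the start site, between genes, in the strongest of these peaks, with a fold enrichment of 13.2. That peak overlapped H3K4me3, c-JUN and LSD1 peaks of the E2 lists. The STXBP6, RAB11FIP4 and TXNDC11 elements were in introns, 45.4, 19.4 and 29.7 kb from start sites, at fold enrichments of 8.54, 6.93 and 6.92. The TXNDC11 element was in the window but outside the called peak. Among the DMSO-only elements, MIDEAS was 1.74 kb upstream at a fold enrichment of 9.32, FOXD1 131 kb away at 9.38 and MEIS1 66.9 kb away in an intron at 5.50. The FOXD1 and MEIS1 elements were likewise in the windows but outside the called peaks. The remaining DMSO-only element was in an annotated UTR 2.64 kb upstream of the start site of OLFML3, at a fold enrichment of 8.51.

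A direct repeat of AGGTCA or AGTTCA with 5 bases between, the form bound by retinoic acid receptors, was in 1 E2-only window and 2 DMSO-only windows. Its half-site AGGTCA contains that of the estrogen response element. The repeat was in 0.0563% and 0.0532% of all windows of the DMSO and E2 lists, and in 0.0200% of the promoters. The E2-only copy was in an intron near NAP1L4. The DMSO-only copies were in an intron 5.56 kb downstream of the start of RET, a receptor tyrosine kinase gene, and 167 bp from the start of NR2E3. Capitals mark the repeat, here read on whichever strand holds it.
NAP1L4, E2-only, chr11:3036427-3036483: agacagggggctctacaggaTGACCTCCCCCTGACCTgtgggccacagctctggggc
RET, DMSO-only, chr10:43601424-43601480: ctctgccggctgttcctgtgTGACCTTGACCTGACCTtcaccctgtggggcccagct
NR2E3, DMSO-only, chr15:72102936-72102992: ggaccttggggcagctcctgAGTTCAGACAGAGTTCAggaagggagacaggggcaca

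The centres of 3 of the strongest exclusive peaks follow, with each CG dinucleotide in capitals, as examples of the base composition described later. Each stretch reaches 75 bases to each side of the summit. Both E2-only stretches, upstream of GAS6 and on the short arm of chromosome 16, held 5 and 4 CG dinucleotides at a GC content of 62.9% and 57.0%. The DMSO-only stretch downstream of the start of RFC3 held 0 at 51.7%, while that of the strong DMSO-only peak near PLB1, not shown because it lies in an annotated UTR, held 4 at 44.4%. The number of CG dinucleotides in such single stretches thus did not separate the classes.
GAS6, E2-only, chr13:114632445-114632595: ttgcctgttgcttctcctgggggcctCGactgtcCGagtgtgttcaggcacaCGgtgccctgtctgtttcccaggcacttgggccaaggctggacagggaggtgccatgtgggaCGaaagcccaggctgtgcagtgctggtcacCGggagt
AC092291.2, E2-only, chr16:14463751-14463901: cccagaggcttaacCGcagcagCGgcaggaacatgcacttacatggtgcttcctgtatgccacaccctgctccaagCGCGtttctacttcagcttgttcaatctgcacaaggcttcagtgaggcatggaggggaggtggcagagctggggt
RFC3, DMSO-only, chr13:34443726-34443876: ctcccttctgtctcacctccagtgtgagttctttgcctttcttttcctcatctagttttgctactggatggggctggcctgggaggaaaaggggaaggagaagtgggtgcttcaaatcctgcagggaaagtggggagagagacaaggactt

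The E2 list was shorter than the DMSO list and was mostly contained in it. It held 0.794 times as many peaks and covered 10.2 Mb against 12.7 Mb. Median peak width was 332 bp with E2 and 327 bp with DMSO, and median fold enrichment at summits, the ratio of ChIP pileup to local background as the authors deposited it, was 8.88 and 8.93. The depth behind the lists, estimated from the deposited fold enrichments and p-values on an assumed mappable genome of 2700 Mb, was about 18.6 Mtags for E2 and 16.3 Mtags for DMSO (tags counted with the mega prefix), so the shorter list came from the deeper library (1.14 times). Epithelial identity was checked on marker genes. An H3K4me1 peak lay within 10 kb of a start site in both lists for 7 of 10 epithelial markers (CDH1, CLDN4, ELF3, EPCAM, KRT8, KRT18 and KRT19), against 25.8% and 21.8% of all genes in the DMSO and E2 lists. Of blood markers 2 and 1 of 8 had a peak, of stromal markers 1 and 2 of 8, of neuronal markers 1 and 1 of 6, and of muscle and liver markers 0 of 5 each.

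Of the E2 list, 18072 peaks (80.1%, 95% interval 79.6 to 80.7%) were shared and 4481 (19.9%, 19.3 to 20.4%) were E2-only. Of the DMSO list, 17618 (62.0%, 61.4 to 62.6%) were shared and 10793 (38%, 37.4 to 38.6%) were DMSO-only. These and all later intervals are exact binomial (Clopper-Pearson) 95% intervals, which cover counting error only and not the spread between cultures. DMSO-only peaks thus outnumbered E2-only peaks 2.41 times. When both lists were cut to the same length by p-value, the numbers were 7188 DMSO-only and 6420 E2-only.

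Exclusive peaks of both kinds were narrow and weak. Median width was 241 bp for E2-only and 245 bp for DMSO-only peaks, against 371 and 426 bp for the shared peaks of the same lists. Median fold enrichment was 7.93 and 8.04, against 9.16 and 9.65. In the weakest decile of the DMSO list by p-value 36.03% of peaks were shared, and in the strongest decile 97.7%. In the E2 list the shares were 59.5% and 98.7%. The share was higher in each stronger decile of both lists. Of E2-only peaks, 79 (1.76%) had at least 2 times the fold enrichment that the DMSO library would have needed for a call at the same place, and of DMSO-only peaks 475 (4.401%). Among shared peaks these shares were 20.1% and 32.5%.

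**Figure D1:**
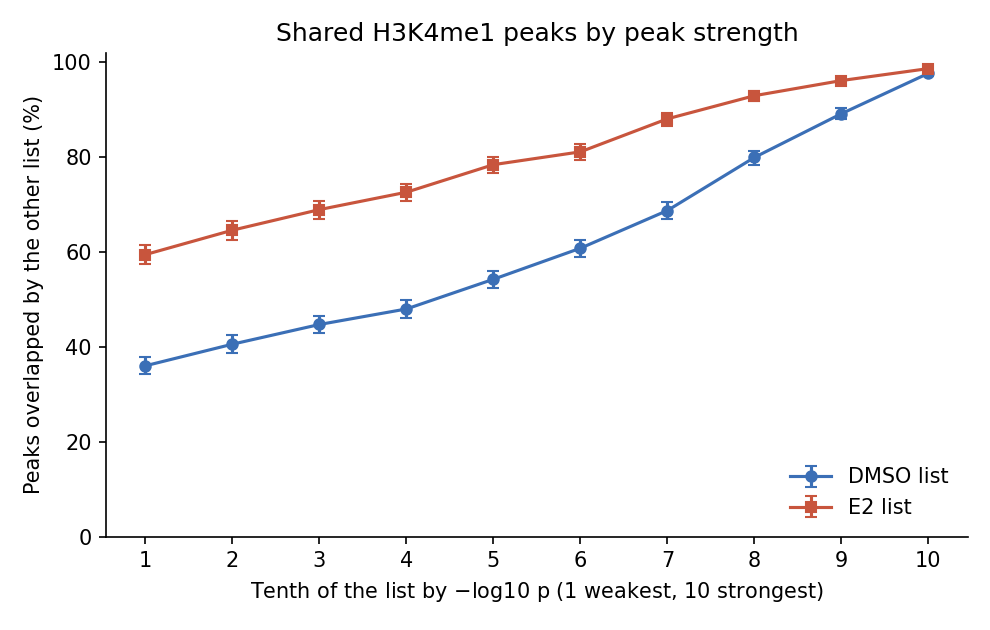
Share of H3K4me1 peaks overlapped by the other list (y axis, percent) in each decile of the DMSO list (circles) and E2 list (squares) ordered by −log10 p (x axis), with exact 95% intervals as bars. The share runs from 36.03 to 97.7% in the DMSO list and from 59.5 to 98.7% in the E2 list.

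Many exclusive peaks lay beside a peak of the other list. The median gap from an E2-only peak to the nearest DMSO peak was 1366 bp, and 45.6% (44.2 to 47.1%) were within 1 kb. For DMSO-only peaks the median gap to the nearest E2 peak was 4558 bp and 34.1% (33.2 to 35.0%) were within 1 kb. When a neighbour within 1 kb counted as shared, 2436 E2-only and 7108 DMSO-only peaks remained.

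Base composition differed between the classes. In the windows around summits, median GC content was 54.8% for E2-only and 48.5% for DMSO-only peaks, with shared peaks between them at 53.5% (E2 list) and 53.2% (DMSO list). Below 45% GC there were 3108 DMSO-only and 443 E2-only peaks, or 7.02 to 1. From 50 to 55% GC the numbers were 2333 and 1019, or 2.29 to 1. At 60% GC and over they were 775 and 1098, so that the order was turned. The share of the DMSO list that was shared rose from 35.96% (34.6 to 37.3%) below 45% GC to 80.9% (79.7 to 82.1%) at 60% and over. In the E2 list it stayed between 75.8% and 82.7% over the same bins. The whole E2 list held 0.443 times as many peaks as the DMSO list below 45% GC and 1.12 times as many at 60% and over.

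**Figure D2:**
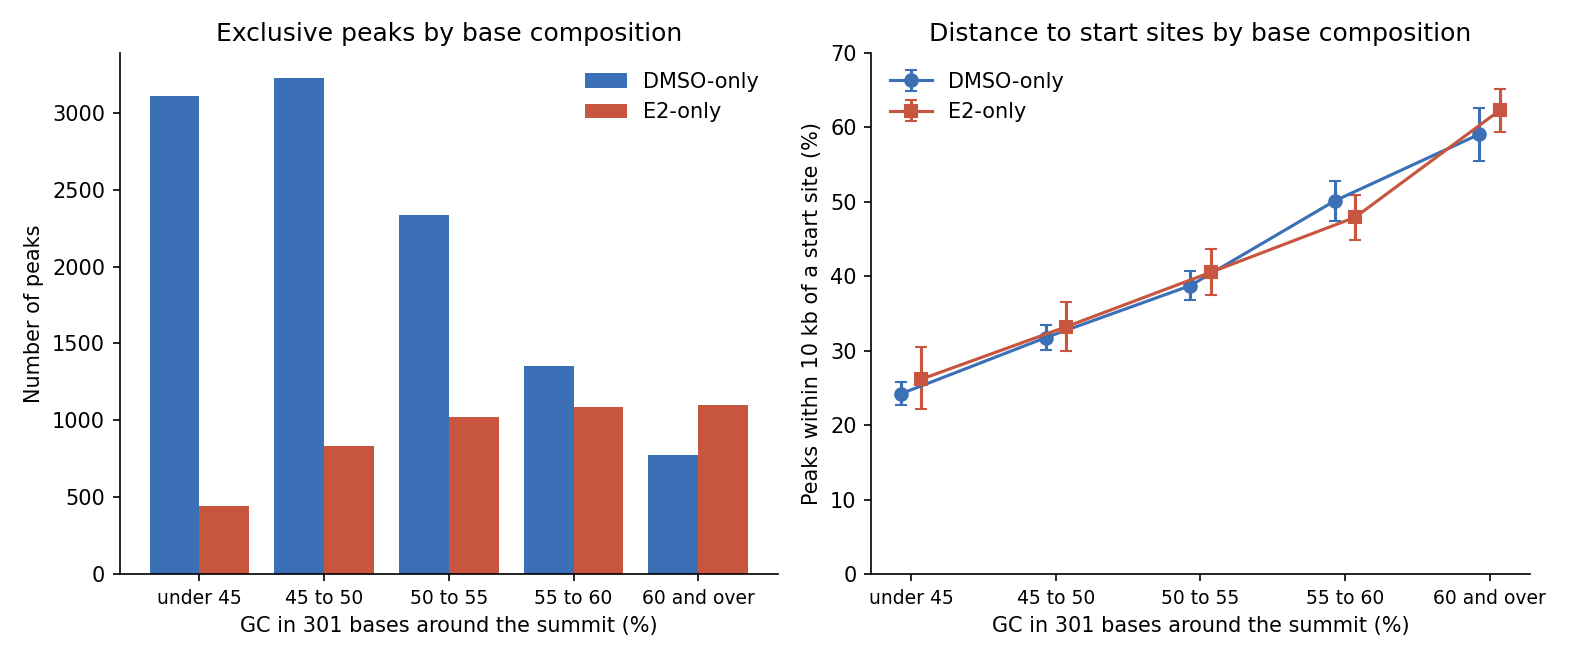
Left, number of DMSO-only and E2-only H3K4me1 peaks (y axis) by GC content of the window around the summit (x axis, percent). Right, share of the same peaks within 10 kb of a protein-coding start site (y axis, percent, bars are exact 95% intervals). DMSO-only peaks fall in number from 3227 at 45 to 50% GC to 775 at 60% and over, while at a given GC content the shares near start sites lie close together, 24.2 and 26.2% in the lowest bin and 59.1 and 62.3% in the highest.

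The ratio of list lengths also varied between chromosomes, whose base content was not set against it. The E2 list was shortest against the DMSO list on chromosome 4 among the autosomes, with 0.634 times as many peaks, and nearest to it on chromosomes 22 (0.932), 21 (0.929) and 19 (0.920). Signal moved with GC content as well. In pairs of shared peaks, the median log2 ratio of fold enrichment, E2 over DMSO, was -0.14 below 45% GC and -0.01 at 60% and over. Other Ishikawa lists also differed in GC between treatments. From DMSO to E2, median GC at summits was 58.8% and 63.5% for LSD1, 54.8% and 58.5% for c-JUN, 60.8% and 70.1% for H3K27me3, 64.5% and 61.8% for MAX and 66.1% and 66.4% for TAF1. H3K4me3 was at 62.1% in both. Whether the GC difference of the H3K4me1 lists came from the treatment or from the libraries cannot be told apart with 1 library each.

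E2-only peaks lay nearer to start sites than DMSO-only peaks. The summit was within 10 kb of a protein-coding start site for 44.9% of E2-only peaks (43.4 to 46.3%), 35.4% of DMSO-only peaks (34.5 to 36.3%) and 40.6% and 41.2% of the shared peaks of the E2 and DMSO lists. Within 1 kb the shares were 14.95%, 10.9%, 10.6% and 11.1%. The median distance was 12.9 kb for E2-only, 20.8 kb for DMSO-only and 15.6 and 15.1 kb for shared peaks. The difference moved with GC content. Weighted to the GC bins of the E2-only peaks, 43.8% of DMSO-only peaks were within 10 kb and 15.5% within 1 kb. Bin by bin, E2-only peaks had the higher share within 10 kb in 4 of 5 bins and the higher share within 1 kb in 1 of 5, with overlapping intervals in each bin at 10 kb.

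Introns and intergenic sequence held similar shares of the classes, while promoters and coding exons held more of the E2-only than of the DMSO-only peaks. Introns of protein-coding genes held 50.5% of E2-only, 49.6% of DMSO-only and 50.1 to 50.2% of shared peaks. Intergenic sequence held 25.8%, 27.9% and 26.7 to 26.8%. The 250 bp on each side of a start site, counted as promoter, held 3.86% of E2-only peaks (3.32 to 4.47%), 2.84% of DMSO-only peaks (2.54 to 3.18%) and 3.05 to 3.18% of shared peaks. Coding exons held 3.77% (3.23 to 4.37%) of E2-only and 1.69% (1.45 to 1.95%) of DMSO-only peaks. Neither the promoter nor the coding exon shares were compared at like GC content, and the part of GC was not tested. Within 1 kb of a start site, the E2-only excess was not kept when DMSO-only peaks were weighted to GC (14.95% and 15.5%).

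Both exclusive classes were poor in other factors. No other Ishikawa target of the same treatment overlapped 77.9% of DMSO-only peaks (77.1 to 78.7%) and 69.1% of E2-only peaks (67.7 to 70.4%), against 51.3% and 43.1% of shared peaks of the DMSO and E2 lists. These shares set each class against the lists of its own treatment, which differed in length, and so do not rank the exclusive classes. With E2 the lists of c-JUN, LSD1, RARA, H3K27me3 and, slightly, H3K4me3 were longer. Those of MAX (0.594 times) and TAF1 (0.856 times) were shorter. Against the same DMSO lists, LSD1, c-JUN and TAF1 each overlapped a larger share of DMSO-only than of E2-only peaks. Against the same E2 lists, c-JUN was more frequent at DMSO-only and, with all GC contents pooled, LSD1 and H3K4me3 at E2-only peaks. At like GC content the order of LSD1 and H3K4me3 mostly turned. At 60% GC and over, LSD1 overlapped 20.2% of E2-only and 26.5% of DMSO-only peaks, and H3K4me3 31.0% and 38.7%. From 50 to 55% GC the shares were 10.3% and 11.7% for LSD1 and 16.3% and 19.5% for H3K4me3. LSD1 kept the pooled order only below 45% GC (1.81% and 1.42%), and H3K4me3 in no bin. The wider shared peaks offer more sequence to overlap, and the part of width was not tested. H3K4me3 was the most frequent partner. It overlapped 16.7% of DMSO-only peaks in the DMSO list and 19.7% of E2-only peaks in the E2 list, against 43.1% of shared peaks in the E2 list.

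LSD1 overlap went with treatment more at E2-only than at DMSO-only peaks. Of E2-only peaks, 3.41% (2.90 to 3.99%) overlapped an LSD1 peak of the DMSO list and 12.2% (11.3 to 13.2%) one of the E2 list, a ratio of 3.58 (2.99 to 4.31). Of DMSO-only peaks the shares were 6.27% (5.82 to 6.75%) and 8.77% (8.25 to 9.32%), a ratio of 1.40 (1.27 to 1.55). At the shared peaks of the E2 list they were 18.03% and 30.6%, a ratio of 1.70. The LSD1 list itself was 2.13 times longer with E2. With both LSD1 lists cut to equal length the ratio was 1.93 at E2-only and 0.771 at DMSO-only peaks, so that at DMSO-only peaks its direction turned. The ratio was higher at E2-only peaks in all 5 GC bins and under 10 of 10 alternatives. It also moved with GC itself, from 0.364 at E2-only and 0.221 at DMSO-only peaks below 45% GC to 5.84 and 3.94 at 60% and over.

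c-JUN, an AP-1 subunit, overlapped more H3K4me1 peaks of every class with E2. The shares were 1.54% and 11.7% at E2-only peaks, 3.24% and 14.4% at DMSO-only peaks and 8.31% and 34.0% at shared peaks of the E2 list. The ratio was 7.61 (5.91 to 9.93) at E2-only and 4.43 (3.94 to 4.98) at DMSO-only peaks, and the c-JUN list was 4.86 times longer with E2. At equal length of the c-JUN lists the ratios were 2.25 and 1.603. With E2, c-JUN was nevertheless at a larger share of DMSO-only (13.7 to 15.03%) than of E2-only peaks (10.8 to 12.7%). At 11.2% of DMSO-only and 10.2% of E2-only peaks it was present in the E2 list alone.

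H3K4me3 overlap also went with the class of the H3K4me1 peak, as did that of H3K27me3 on few peaks and without a comparison by GC. H3K4me3 overlapped 15.5% of E2-only peaks in the DMSO list and 19.7% in the E2 list, a ratio of 1.27 (1.15 to 1.40), while at DMSO-only peaks it overlapped 16.7% and 16.1%, a ratio of 0.960 (0.898 to 1.03). The H3K4me3 ratio was higher at E2-only than at DMSO-only peaks in all 5 GC bins, and the H3K4me3 list was 1.08 times longer with E2. H3K27me3, the mark of Polycomb silencing, overlapped 34 and 70 E2-only peaks in the DMSO and E2 lists, a ratio of 2.06 (1.35 to 3.20), and 113 and 92 DMSO-only peaks, a ratio of 0.814 (0.611 to 1.08). The last interval includes 1. The H3K27me3 list was 3.18 times longer with E2, and its median GC was 60.8% with DMSO and 70.1% with E2. H3K27me3 overlap was not counted by GC bin, and the part of GC in its ratios was not tested.

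The other factors showed small overlaps. TAF1, a subunit of the general factor TFIID, overlapped 6.61% and 4.31% of E2-only peaks and 8.28% and 5.07% of DMSO-only peaks in the DMSO and E2 lists. MAX, the E-box partner of MYC, overlapped 0.491% and 0.513% of E2-only and 0.778% and 0.741% of DMSO-only peaks. RARA, a retinoic acid receptor whose DMSO list held 137 peaks and whose E2 list held 2883, overlapped 0.736% of E2-only, 1.18% of DMSO-only and 4.22% of shared peaks with E2. SIN3A, a corepressor, overlapped 7.03% of E2-only and 7.66% of DMSO-only peaks in stripped media and 2.30% and 3.39% in full media. The c-MYC lists of 61 and 2 peaks and the H3K36me3 list of 114 peaks overlapped at most 1 peak of any class.

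**Figure D3:**
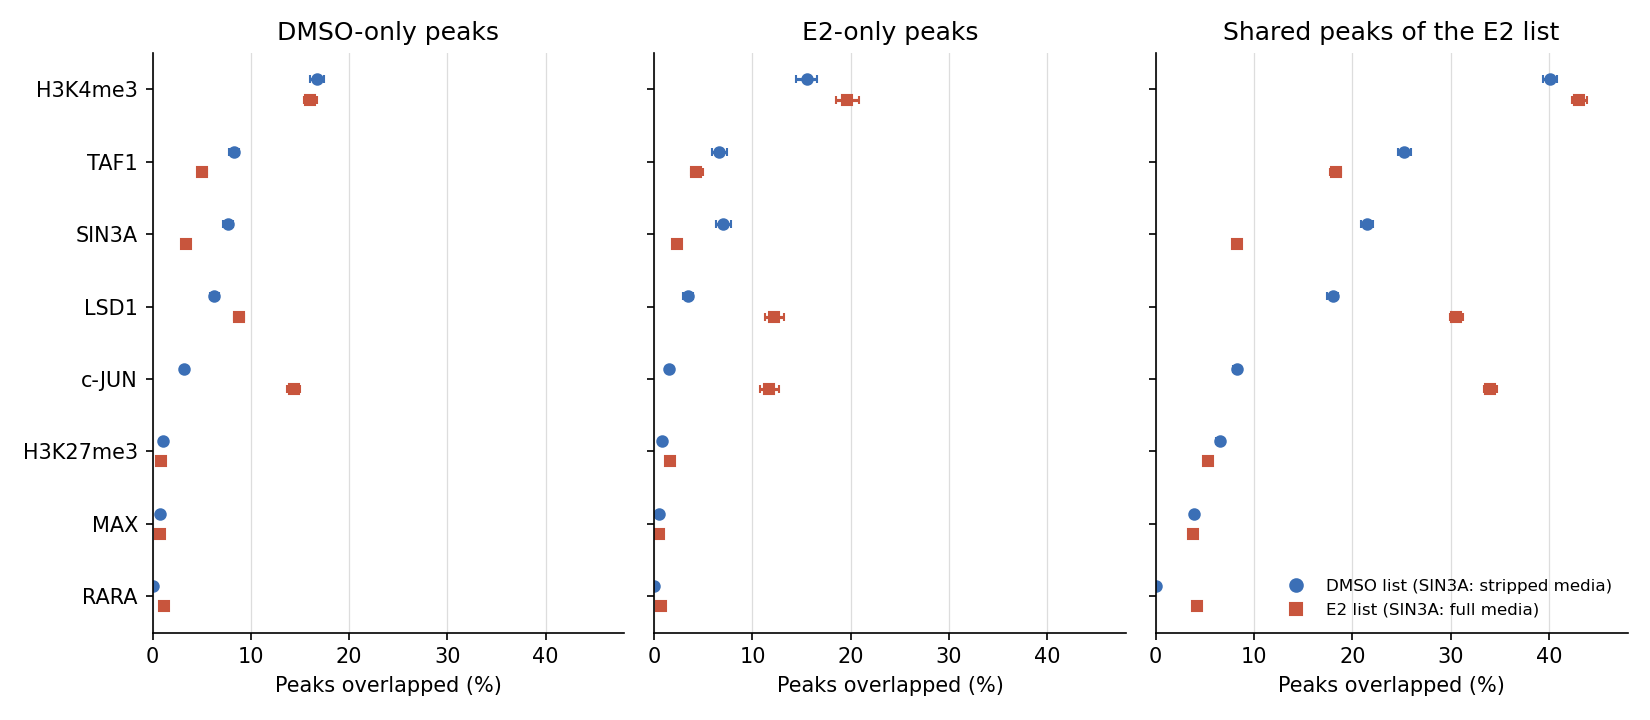
Share of DMSO-only, E2-only and shared H3K4me1 peaks (x axis, percent, bars are exact 95% intervals) overlapped by the DMSO list (circles) or E2 list (squares) of each other Ishikawa target (y axis). For SIN3A the circles are stripped and the squares full media. LSD1 goes from 3.41 to 12.2% at E2-only peaks and from 6.27 to 8.77% at DMSO-only peaks, and c-JUN is higher with E2 in every panel.

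Seen from the factor lists, few factor peaks met an exclusive H3K4me1 peak. Of the 11873 LSD1 peaks found with E2 alone, 2.59% (2.31 to 2.89%) overlapped an E2-only, 3.57% (3.24 to 3.92%) a DMSO-only and 22.3% a shared H3K4me1 peak. Of the 2026 LSD1 peaks found with DMSO alone, 1.43% (0.961 to 2.05%) met an E2-only and 11.6% (10.3 to 13.1%) a DMSO-only peak. Of the 14949 c-JUN peaks found with E2 alone, 2.01% met an E2-only, 5.93% a DMSO-only and 26.97% a shared H3K4me1 peak.

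DMSO-only peaks differed from the shared peaks of their list in 3 of 4 short motifs by intervals that did not overlap, and E2-only peaks in none. The AP-1 motif TGANTCA was in 10.49% (9.61 to 11.4%) of E2-only and 12.5% (11.9 to 13.2%) of DMSO-only windows on either strand, against 10.9% (10.4 to 11.3%) and 11.2% (10.8 to 11.7%) of the shared windows of the E2 and DMSO lists and 7.68% of RefSeq promoters. The forkhead motif TGTTTAC was in 3.08% and 4.10% (3.73 to 4.49%), against 3.05% and 3.09% (2.84 to 3.35%) of shared windows and 3.42% of promoters. The TEAD motif GGAATG was in 19.4% and 21.8%, against 20.9% and 21.1% of shared windows and 14.04% of promoters. The E-box CACGTG was in 7.12% (6.38 to 7.91%) and 5.69% (5.26 to 6.14%), against 7.34% and 7.24% (6.86 to 7.63%) of shared windows and 7.27% of promoters. The first 3 motifs were the more frequent in DMSO-only and the E-box in E2-only windows, and the part of base content, 48.5% and 54.8% GC, was not tested. Of E2 list windows under a c-JUN peak with E2, 12.5% (11.7 to 13.3%) held TGANTCA, against 10.1% (9.63 to 10.6%) of those without.

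Outside Ishikawa cells, H3K4me1 lists of T-47D breast carcinoma cells overlapped shared peaks most. A T-47D peak with either treatment overlapped 8.32 and 8.51% of shared peaks (E2 and DMSO lists), 4.02% (3.46 to 4.63%) of E2-only and 2.34% (2.07 to 2.65%) of DMSO-only peaks. The T-47D lists were shorter, 6408 peaks with DMSO and 1960 with E2.

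Of the 8 strongest E2-only peaks 7 overlapped H3K4me3 and 1 no other target, beside 19.7% and 69.1% of all E2-only peaks. Of the 8 strongest DMSO-only peaks 2 overlapped H3K4me3 and 5 no other target, beside 16.7% and 77.9% of all DMSO-only peaks. These E2-only peaks were 435 to 1347 bp wide and these DMSO-only peaks 241 to 483 bp. The class medians were 241 and 245 bp, and the part of width was not tested. By −log10 p, the first E2-only peak lay 39.7 kb downstream of the start of ODF1, at a fold enrichment of 17.8, and overlapped H3K4me3. The peak 65.5 kb upstream of GAS6, a ligand of TAM receptors (sequence above), had a fold enrichment of 21.6 and overlapped H3K4me3, H3K27me3, c-JUN, LSD1 and TAF1. The chromosome 16 peak shown above had 20.2, with 7 other targets. A pair of peaks in an intron near NAP1L4, a histone chaperone gene, at chr11:3030938-3032284 and chr11:3032865-3033913, had 18.3 and 17.5, the first with 7 other targets. The remaining 3 were in introns near CBFA2T3 (17.2) and ANO1 (15.4), a corepressor and a chloride channel gene, and 344 kb from FGF12 (17.9), where no other target was found.

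The first of the DMSO-only peaks, 38.9 kb downstream of the start of RFC3, a subunit of the clamp loader, had a fold enrichment of 19.4 (sequence above). Others without a target were near PLB1 (14.4), in an intron near SSBP3 (12.1), near WDSUB1 (15.6) and 142 kb from TGFB2 (13.4). The peak 11.5 kb upstream of FBN3 had 18.4 and overlapped H3K4me3 and TAF1, and the intronic peak near RREB1 had 10.9 with H3K4me3 and LSD1.

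The exclusive peaks under the most targets reached 7 with E2 and 6 with DMSO, where the short RARA list could add almost none. Besides the chromosome 16 and NAP1L4 peaks, the E2-only ones were 375 bp upstream of GLS2 (fold enrichment 10.6), 7.36 kb from TSKU (9.80) and at the promoter of TMEM184A, 163 bp upstream (6.58). The DMSO-only ones were 7.27 kb upstream of ZNF436 (11.9), in an intron near MIGA2 (11.1), 67.4 kb from PXDN (12.5) and 51.8 kb upstream of ATF3, an AP-1 family gene (9.95). The fifth, on the X chromosome 625 kb from ZXDA, had 5.81 and was 187 bp wide, the narrowest width in the list.

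Within paired shared peaks, the median signal differed little between the libraries. The 13747 pairs in which a single peak of each list overlapped a single peak of the other had a median log2 ratio of fold enrichment, E2 over DMSO, of -0.09 (quartiles -0.32 and 0.15). A ratio of at least 1 on the log2 scale was found in 64 pairs (0.466%) and of at most -1 in 160 pairs (1.16%). Across the pairs, Pearson's r of log2 fold enrichment was 0.609 and Spearman's rho 0.578. Pairs are not independent replicates. They hold only places called in both libraries, so a place with a larger change could fall into an exclusive class instead, which limits the range of these ratios.

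**Figure D4:**
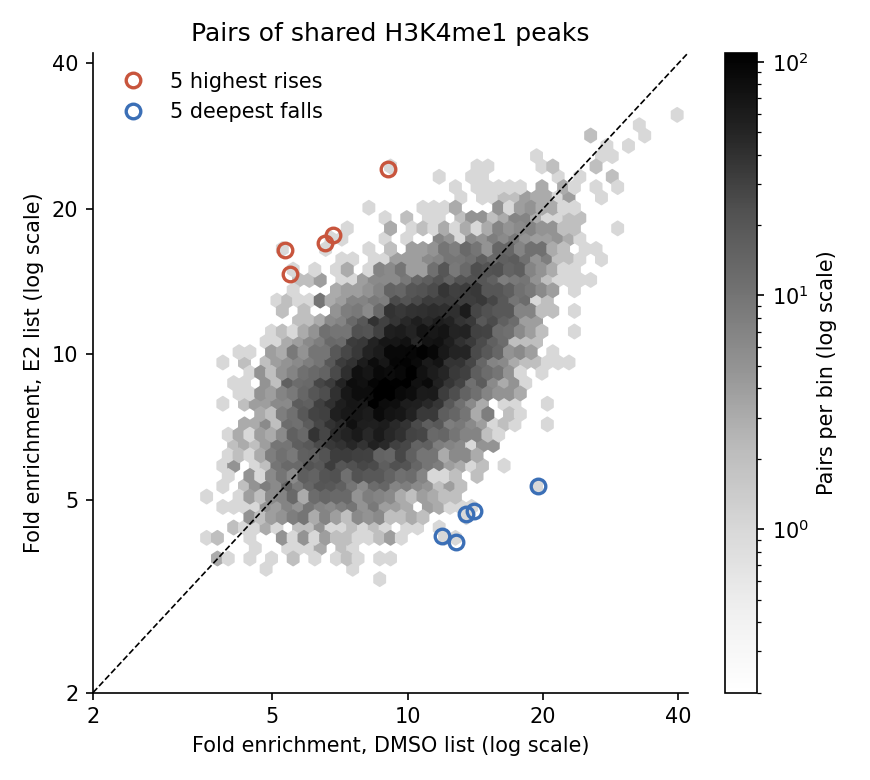
Fold enrichment with E2 (y axis, log scale) against DMSO (x axis, log scale) in 13747 pairs of shared H3K4me1 peaks, grey by number of pairs per bin, with the line of equality dashed. Open circles are the 5 highest rises and 5 deepest falls, which stand apart from the band at the line.

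The highest rise was in an intron near CROCC2 at chr2:241861951-241862834, from 5.34 with DMSO to 16.4 with E2, a log2 ratio of 1.62. It was followed by a UTR near C10orf105 (5.47 and 14.7), a region 30.6 kb from the start of LHX3, a LIM homeobox gene (9.03 and 24.2), an intron near BAIAP2L2 (6.83 and 17.7) and a region 84.4 kb upstream of FYN, a Src family kinase gene (6.56 and 17.0). With E2 all 5 overlapped H3K4me3, beside 43.1% of shared E2 list peaks, and the LHX3 region also H3K27me3, c-JUN, LSD1, RARA and TAF1. The CROCC2, LHX3 and BAIAP2L2 regions overlapped H3K4me3 with DMSO as well. At LHX3, H3K27me3, LSD1 and TAF1 were also there with DMSO, and c-JUN and RARA were not. The deepest fall was 7.50 kb upstream of IFIT2, an interferon-induced gene, from 19.5 to 5.35, a log2 ratio of -1.87. TRIML1 (12.8 and 4.10), EML4 (14.1 and 4.76), the promoter of STON2 (13.5 and 4.67) and CD81 (11.9 and 4.21) followed. Of these, STON2 alone overlapped another target. The ratios of the named pairs ran from 1.37 to 1.62 and from -1.50 to -1.87, beside the median of -0.09.

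Counted within 100 kb of start sites, more genes neighboured DMSO-only than E2-only peaks. Of 19748 protein-coding genes, 35.4% had at least 1 E2-only peak and 52.3% at least 1 DMSO-only peak. More E2-only than DMSO-only peaks were found at 2631 genes (13.3%) and more DMSO-only at 7528 (38.1%). This order changed with the lengths of the lists. At equal length, 5150 genes had more E2-only and 4417 more DMSO-only peaks, so that the order was turned. DMSO-only peaks were still the more numerous there, 7188 against 6420, and what set the order of the genes was not tested. With peaks of 50 to 55% GC alone, 1477 had more E2-only and 3899 more DMSO-only peaks.

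The genes with the largest surplus of E2-only peaks were HEXD with 21 E2-only and 2 DMSO-only peaks, KAZN with 21 and 2, OGFOD3 with 20 and 2, TEX19 and UTS2R with 20 and 3 each, ZMIZ1 with 21 and 4, CD7 with 19 and 3 and CYBC1 with 17 and 1. HEXD, OGFOD3, TEX19, UTS2R, CD7 and CYBC1 are neighbours on chromosome 17, and the 159 peaks counted at the 8 genes were 64 distinct peaks. Median GC at these peaks ran from 54.2% (KAZN) to 65.1% (CD7). KAZN encodes a periplakin-binding protein of cell junctions, and ZMIZ1 a transcriptional coregulator that acts with steroid receptors.

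The largest surplus of DMSO-only peaks was at HMGA2, an architectural chromatin gene, with 27 DMSO-only and 3 E2-only peaks, and PPFIBP1 with 25 and 1. AFF1, a gene of the super elongation complex, had 23 and 0, ALDH1A2, which makes retinoic acid, 22 and 1, FMN1 21 and 0, SHROOM3 28 and 7, SLC14A2 21 and 1 and ALPK2 19 and 0. These 186 peaks were all distinct, and their median GC ran from 43.5% (PPFIBP1 and SHROOM3) to 49.5% (ALDH1A2). ESR1, the estrogen receptor alpha gene itself, had 21 DMSO-only, 2 E2-only and 13 shared peaks, a surplus equal to those of ALPK2 and STOX2, among which the order is by name.

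**Figure D5:**
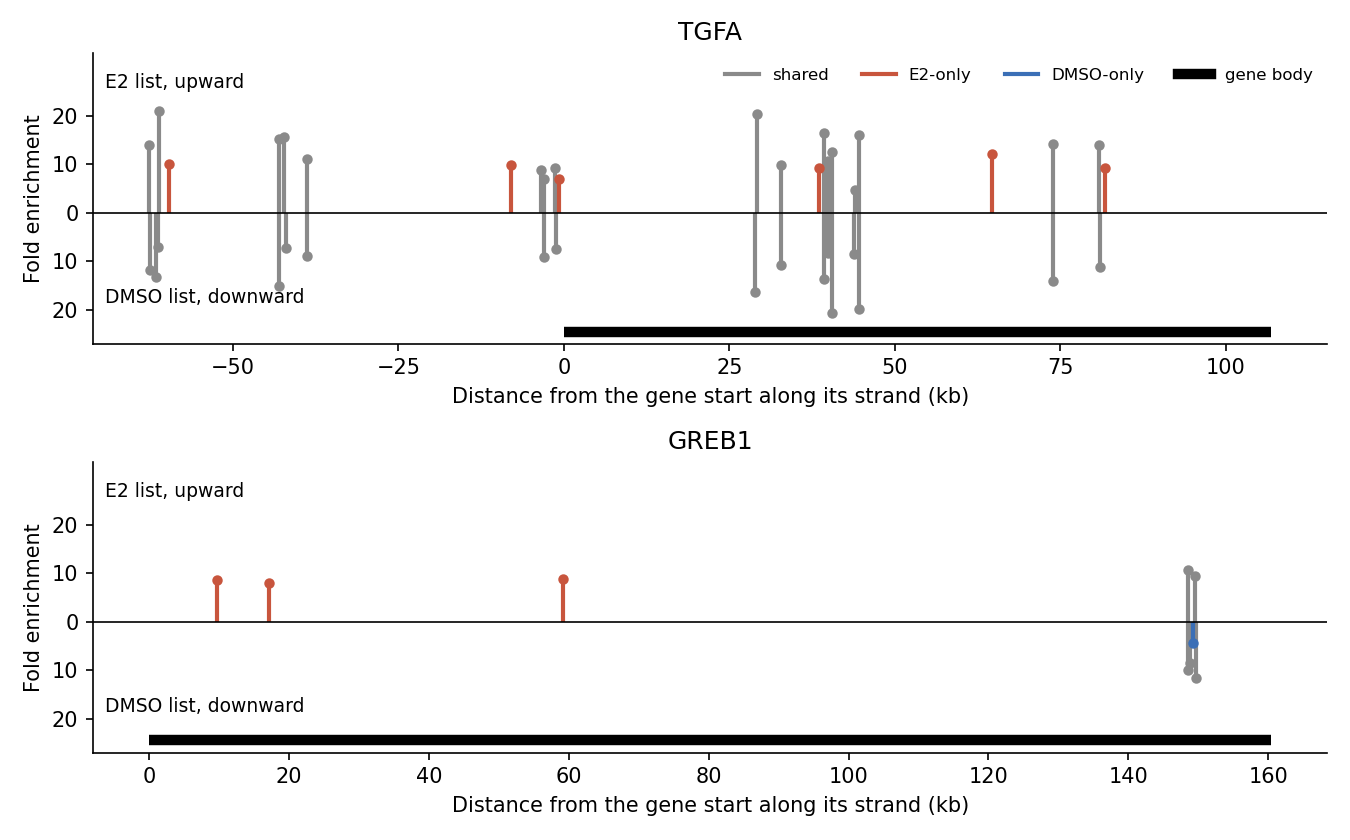
H3K4me1 peaks at TGFA and GREB1 by distance of the summit from the gene start (x axis, kb), with fold enrichment of E2 list peaks upward and of DMSO list peaks downward (y axis), shared peaks in grey, exclusive peaks in colour and the gene body as a black bar. TGFA has 6 E2-only peaks and no DMSO-only peak, and GREB1 has 3 and 1.

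Summed over genes, the estrogen-induced list held the most E2-only against DMSO-only peaks of the 6 lists counted. Of 25 genes, 14 (56%) had an E2-only and 13 (52%) a DMSO-only peak within 100 kb, beside 35.4% and 52.3% of all genes. More E2-only peaks were found at 8 of them (13.3% of all genes) and more DMSO-only at 5 (38.1% of all genes), with 35 E2-only and 25 DMSO-only peaks in sum. The members were chosen with estrogen response known, in part in these cells. TGFA, an EGF receptor ligand, had 6 E2-only and 0 DMSO-only peaks, IGFBP4, a binding protein of insulin-like growth factors, 6 and 2, CCND1 (cyclin D1) 4 and 1, GREB1, an estrogen receptor cofactor, 3 and 1, and EGR3 3 and 0. FOS, an AP-1 subunit gene, went the other way with 1 and 7. PGR had 0 and 1, and TFF1, TFF3, PDZK1, AREG, SGK1 and MYB had no H3K4me1 peak in either list.

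At TGFA all 17 DMSO peaks were shared. The E2 list held 23 peaks there, of which the 6 E2-only were at -59.6, -7.98, -0.765, 38.6, 64.7 and 81.8 kb from the gene start, with fold enrichments of 10.1, 9.96, 7.03, 9.25, 12.1 and 9.25. The peak nearest the start overlapped H3K4me3. TGTTTAC or GGAATG was in 3 of the 6 windows, while 3.08% of all E2-only windows held the first motif and 19.4% the second. With so few windows this says nothing particular to the gene. The shared peak at -61.2 kb had 21.0 in the E2 list, where the neighbouring DMSO peaks had 7.11 and 13.2, while the intronic peak at 40.6 kb had 20.7 with DMSO and 12.5 with E2. Both directions were therefore present at this gene.

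At GREB1, whose start was taken from the annotation, 3 E2-only peaks were in introns 9.74, 17.1 and 59.2 kb downstream, with fold enrichments of 8.51, 7.92 and 8.78. The second overlapped H3K4me3. All DMSO peaks lay from 148.5 to 149.7 kb, where 3 were shared and 1 (4.42) was DMSO-only. PEG10, an imprinted gene, had 1 peak in all, DMSO-only, at -75.4 kb (8.30). None of the exclusive windows at GREB1 and PEG10 held any of the motifs named here.

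The other lists had more DMSO-only peaks, as did all genes. Of 16 steroid receptors and coregulators, 1 had more E2-only and 8 more DMSO-only peaks. FOXA1, FOXA2, GATA3, NR3C1 and NR3C2 had none of any class. Of 20 transcription factors of the endometrium and Müllerian duct, 2 had more E2-only and 8 more DMSO-only. PAX8, a lineage factor of this epithelium, had 29 shared, 14 DMSO-only and 4 E2-only peaks, and EMX2 5, 2 and 3. Of 10 AP-1 subunit genes 3 and 5 went each way, with JUND at 7 E2-only and 4 DMSO-only peaks and JUNB at 1 and 6. An E2-only peak was near 8 of these 10 genes (80%) and a DMSO-only peak near 8 (80%). The E2-only share was thus higher than the 56% of the estrogen-induced list. Of 14 writers and erasers of H3K4 methylation 1 and 5 did, with KMT2D at 4 and 4. Of 19 growth factor and insulin-like growth factor genes 3 and 10 did. ERBB2, a receptor tyrosine kinase gene of the EGF receptor family, had 12 E2-only, 4 DMSO-only and 19 shared peaks, and IGFBP1 and IGFBP3, which are neighbours and share their peaks, had 0 and 5 each.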

How the data were processed

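Chromatin immunoprecipitation libraries of H3K4me1 in Ishikawa cells, 1 per treatment, were analysed from peak lists. Per the labels and methods, the authors aligned reads to hg19 with Bowtie 1.1.2, keeping unique best placements, and called peaks per library with MACS2 2.1.0.20140616. For each peak the authors deposited a fold enrichment (a ratio of pileup to local background, with 1 added to both), −log10 p and q values, a score equal to 10 times −log10 p, and the summit position. The smallest −log10 p was 10. Tag depth was estimated from fold enrichment and p together.

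Peaks were classed by overlap and annotated with GENCODE release 44 on GRCh37 (Python 3.11.15, pandas 2.3.3, SciPy 1.17.1). Distances ran from the summit to the nearest protein-coding start site. Intervals are exact (Clopper-Pearson). Overlap, distance, gene counts and motifs were tested on simulated data. Named peaks were the 8 strongest of each exclusive class, the 5 highest rises and 5 deepest falls among pairs with a fold enrichment of at least 10 in 1 list, the 5 exclusive peaks under the most targets, the 8 genes with the largest surplus of each class, and members of 6 gene lists. ESR1 and STOX2, tied with the last of these genes, were named after their values were seen. Members and lists were chosen with earlier results of these data known. Alternatives were an overlap of 50%, stricter thresholds, equal list lengths, merging, other start sites and, chosen after seeing the data, fixed GC content. Input libraries were not used here. Some genes and peaks that these rules name are not reported here.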

Additional observations from a re-analysis of the deposited data

Results flagged for a closer look

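Both cell lines were treated alike, and the differences between their H3K4me1 lists had opposite signs on 2 measures. The share of peaks within 10 kb of a protein-coding start site was 2.50 points higher with E2 in Ishikawa. It was 39.0% (38.4 to 39.5%) with DMSO and 41.5% (40.8 to 42.1%) with E2. In T-47D it fell by 2.97 points, from 39.6% (38.4 to 40.8%) to 36.6% (34.5 to 38.8%), and these intervals overlapped. Median GC content around summits was 2.33 points higher with E2 in Ishikawa (51.5% and 53.8%) and fell by 0.332 points in T-47D (52.8% and 52.5%). Each is a difference between single libraries, and whether both lines differ in it was not tested. The number of peaks was lower with E2 in both lines.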

How the results depend on the processing

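No paired analysis was possible because each group compared was 1 library. Of 93 values under alternatives, 31 stayed within their intervals or within 1.5 times the main count, 61 moved and 1 turned direction. Counts were scored only as kept or moved. The gene counts at equal list length, whose order turned (5150 and 4417 against 2631 and 7528), are therefore among those that moved. With a reciprocal overlap of 50%, E2-only peaks were 9649 and shared shares 45.4% (DMSO list) and 57.2% (E2 list). At −log10 p of at least 20, DMSO-only peaks were 6480 and the shares 58.4% and 73.5%. At a fold enrichment of at least 10, exclusive peaks were 4760 (DMSO) and 2297 (E2) and the shares 50.9% and 68.7%. With lists of equal length, DMSO-only peaks were 7188 and the shares 68.1% and 71.5%. With peaks within 1 kb merged, exclusive regions were 6618 and 2627 and the shares 63.4% and 81.7%. With neighbours within 1 kb taken as shared, they were 7108 and 2436 and 74.98% and 89.2%. DMSO-only outnumbered E2-only in 6 of 6.

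The share within 10 kb of a start site was higher for E2-only peaks in 6 of 6 alternatives made without GC. It was 69.0% of E2-only and 61.6% of DMSO-only for start sites of all annotated genes, 42.6% and 37.6% at 50% overlap, 43.0% and 34.1% at the stricter p, and 41.1% and 31.4% at the stricter fold enrichment. It was 34.3% of DMSO-only with equal lists, 46.7% of E2-only with neighbours as shared, and 43.8% of DMSO-only weighted to GC (chosen after seeing the data).

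For LSD1 the E2 over DMSO ratio at E2-only peaks was 2.06 at 50% overlap, 2.57 at the stricter p, 2.21 at the stricter fold enrichment, 5.29 with neighbours as shared, 1.93 with factor lists of equal length and 5.65 at 55 to 60% GC. At DMSO-only peaks it was 1.55 for summits inside the peak, 1.63 at 50% overlap, 1.56 with neighbours as shared, 1.23 over 1 kb from start sites, 1.84 at 50 to 55% and 3.59 at 55 to 60% GC. With LSD1 lists of equal length it was 0.771 and turned direction, the construction being that the E2 list was shortened. For c-JUN at E2-only peaks it was 5.00 at 50% overlap, 12.4 with neighbours as shared, 2.25 with lists of equal length and 11.9 at 55 to 60% GC. At DMSO-only peaks it was 5.05 for summits inside, 3.58 at the stricter fold enrichment, 5.97 with neighbours as shared, 1.603 with lists of equal length, 5.45 at 50 to 55% and 5.82 at 55 to 60% GC. The fixed GC bins were chosen after seeing the data.

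Genes with more E2-only and more DMSO-only peaks were 1368 and 3997 by nearest start site, 5150 and 4417 with lists of equal length and 1477 and 3899 at 50 to 55% GC. At a fold enrichment of at least 10, 4688 had more DMSO-only peaks. The median log2 ratio of pairs did not move. Other than the construction of each setting, the cause of these shifts was not tested. The lists hold called peaks alone, so a weak peak missed in 1 library cannot be told from an absent one, and about 16.3 and 18.6 Mtags limit what could be called.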

Other observations

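The X chromosome was nearly empty of H3K4me1 peaks. It held 49 of the DMSO list (0.172%) and 17 of the E2 list (0.0754%), 0.347 times as many, and 41 and 9 of them were exclusive. In the same cells it held 2.71% and 2.70% of H3K4me3 peaks and 2.41% and 2.33% of TAF1 peaks, but 0.429% and 0.609% of LSD1 and 0.478% and 0.994% of c-JUN peaks (DMSO and E2 lists). In T-47D cells it held 0.437% and 0.102% of H3K4me1 peaks. Neither base content nor chromosome number was examined for these shares.

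Of epithelial genes, 4 with more DMSO-only than E2-only peaks were looked at after their values were seen. Such a surplus was found at 38.1% of all genes, a share that genes picked for the surplus cannot be weighed against. Of the other epithelial markers, CLDN4, ELF3, GRHL2, KRT19 and MUC1 had it too, and ESRP1 had no peak of any class. KRT8 had 37 shared, 13 DMSO-only and 1 E2-only peaks within 100 kb and KRT18, its neighbour and partner in simple epithelia, 32, 13 and 1. The 100 kb windows of both genes overlap, so their counts are not independent. CDH1 (E-cadherin) and EPCAM, both epithelial adhesion genes, had 7 DMSO-only and 0 E2-only peaks each.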
